A study of Mus musculus with 8 samples.

Results

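The genes described here are 10 listed targets of the canonical Wnt pathway, Axin2, Sp5, Nkd1, Rnf43, Znrf3, Tcf7, Tcf7l1, Cdx1, Cdx2 and T. They are part of 50902 genes with a value in mouse embryonic stem cells (ESCs). The 10 were chosen by name, as genes known to respond to β-catenin. The choice gives no direction of response for any of them, so a higher level does not by itself mean more signalling. All were read in RNA-seq libraries of ESCs whose medium holds a GSK3 inhibitor. The cells were E14 ESCs in serum-free N2B27 medium with LIF and 2i, the pair of the MEK inhibitor PD0325901 and the GSK3 inhibitor CHIR99021. Both lines carried, through piggyBac insertion, a Flag- and HA-tagged BAZ2A transgene that resists the siRNA used to deplete endogenous Baz2a, and RNA was collected 3 days after siRNA transfection. ESC + F/H-BAZ2Ar WT (4 libraries) expressed the full-length protein, and ESC + F/H-BAZ2Ar ΔTAM (4 libraries) a form without the TAM domain, through which BAZ2A binds RNA. The comparison asks how gene expression depends on that domain. Each line was grown from single cells on its own, so a difference between the transgenes and a difference between the lines cannot be told apart. The labels do not say whether the 4 libraries of a line came from separate cultures, so p-values measure the spread between these libraries, which may be technical. All 8 libraries had the GSK3 inhibitor and none lacked it, so the response of these genes to GSK3 inhibition itself was not measured, and their values are levels within that medium.

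In the canonical pathway, a Wnt ligand binds Frizzled and LRP receptors at the cell surface, the destruction complex of Axin, APC and the kinase GSK3 stops marking β-catenin for degradation, and β-catenin enters the nucleus and acts through TCF/LEF factors. A GSK3 inhibitor enters this pathway below the receptors. Many target genes encode inhibitors of the pathway itself and form feedback loops. In mouse ESCs the pathway favours self-renewal, chiefly by relieving repression by TCF7L1, while Cdx1, Cdx2 and T are targets better known from the gastrulating embryo.

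Of the 10 genes, 7 were higher in ESC + F/H-BAZ2Ar ΔTAM than in ESC + F/H-BAZ2Ar WT (Axin2, Sp5, Rnf43, Znrf3, Tcf7, Tcf7l1 and Cdx2) and 0 were lower at an adjusted p under 0.05 (limma on log2 values with Benjamini-Hochberg adjustment over 12631 genes). Over all genes tested, 21.7% were higher and 22.0% lower by the same rule. The log2 fold changes of the 10 ran from −0.18 (T) to 1.01 (Rnf43), with a median of 0.33, beside a median of −0.0040 over all genes tested. The study states thresholds of a log2 fold change of at least 0.58 and p under 0.05. With the raw limma p, 3 of the 10 passed them as higher (Rnf43, Sp5 and Tcf7l1), against 4.23% of all genes tested. These are not the study's own calls. In 6 of the 10, every ΔTAM library lay above every WT library, which held for 19.1% of all genes, and in 1 (T) every ΔTAM library lay below, which held for 18.7%. All 10 passed the filter of a mean of at least 0.2 RPM (reads per 1000000 of the library total), and the least covered value rested on 28 reads. The 10 genes were chosen with earlier results of these data known, so these counts describe them and are no test of the group.

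**Figure D1:**
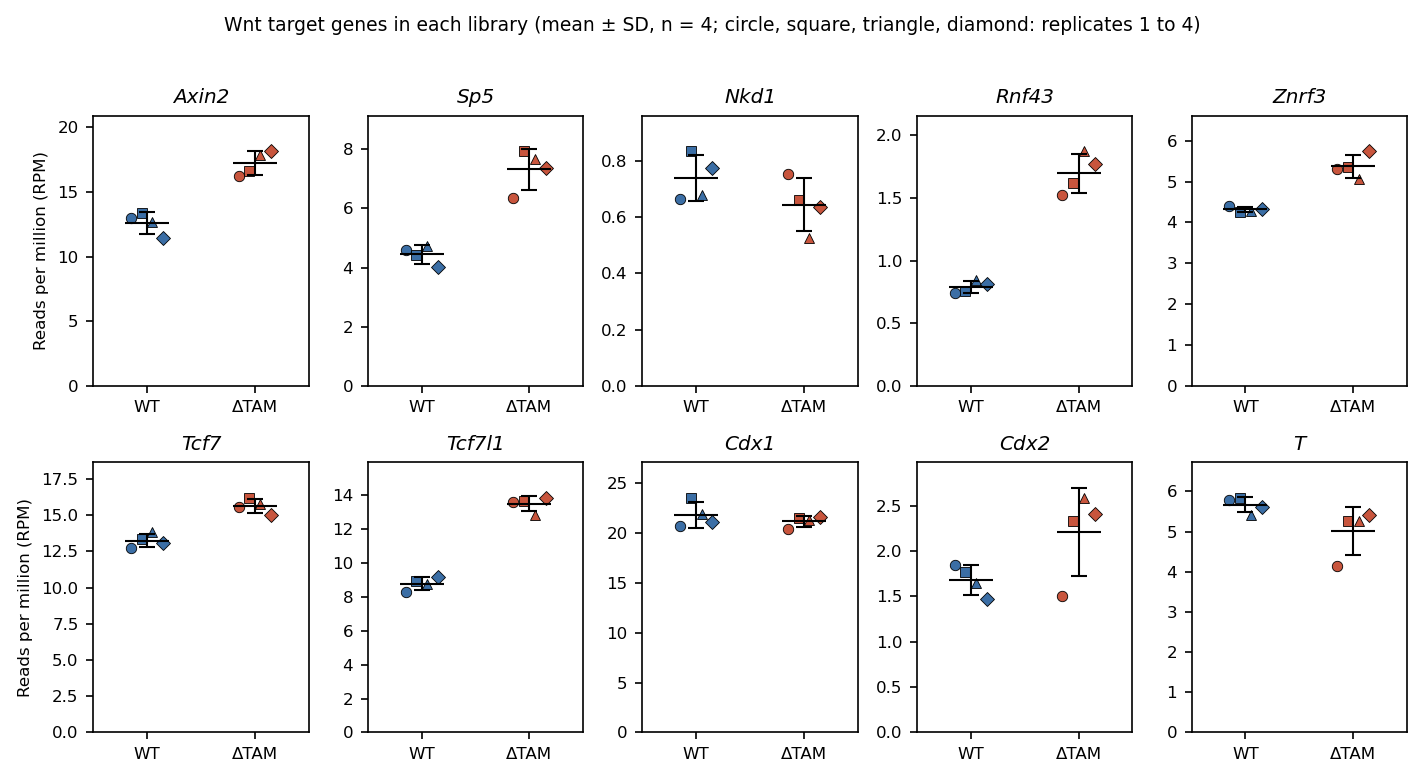
RPM of each of the 10 Wnt target genes in the 4 libraries of ESC + F/H-BAZ2Ar WT and the 4 of ESC + F/H-BAZ2Ar ΔTAM, 1 panel per gene with its own axis; points are libraries and bars the mean ± SD. The groups do not overlap for Axin2, Sp5, Rnf43, Znrf3, Tcf7, Tcf7l1 and T, and they overlap for Nkd1, Cdx1 and Cdx2.

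Levels are given as RPM, with the library total that the deposited values imply, and a fold change is on the log2 scale after adding 0.1. Each library held 6560881 to 8662855 reads on genes, and 1 read was worth 0.0172 to 0.0228 RPM. Library 4 of WT and library 1 of ΔTAM lay at 1 end of the second principal component, at −7.25 and −9.36, while the other libraries lay between −2.88 and 7.67. Baz2a was at 396 ± 20.0 RPM in WT and 689 ± 31.1 in ΔTAM (SD, n = 4 each; log2 fold change 0.80, SE 0.037, limma adjusted p = 1.2e-13). Reads of the transgene and of the depleted endogenous gene were not separated in these values, so they do not check the depletion. The lines thus differed in Baz2a RNA as well as in the TAM domain, and the parts of these cannot be told apart here. The paper reports that BAZ2A protein was at similar levels in both lines. Defining ESC markers were present in every library, with a summed level of Pou5f1, Sox2, Nanog, Zfp42, Esrrb, Klf4 and Tfcp2l1 of 771 to 781 RPM in WT and 698 to 736 in ΔTAM. Of these 7, Sox2, Esrrb and Klf4 were lower in ΔTAM and 0 were higher. Of 7 fibroblast markers, none had more than 10 reads in a library and Col3a1, Dcn and Lum had 0.

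TCF/LEF factors bind DNA through a short core, and for the 10 genes the 250 bases before each RefSeq start were searched for it as CTTTG followed by AT, AA, TT or TA, on both strands, in RefSeq sequence of GRCm38.p6. Of the 10, 8 have a promoter in the table used (Cdx1 and Znrf3 have no entry), with 10 promoters in all. Sp5 holds 2 matches and T holds 1, and the other 6 genes hold none in these windows. The RefSeq start is the start of the deposited span for Axin2, Sp5 and T and for 1 of the 2 windows of Tcf7 (the other lies 419 bases off). It lies 21 bases off for Cdx2, 209 for Tcf7l1, 6279 for Nkd1, and 365 and 37175 for the 2 windows of Rnf43, so for Nkd1 and Rnf43 the sequence before the deposited start was not searched. Over 32851 promoters searched the same way, 14.8% hold at least 1 match and 1.43% hold 2 or more. Shown are Sp5 (chr2:70474673-70474922, plus strand) and T (chr17:8434173-8434422, plus strand) for their matches, in capitals, and Axin2 (chr11:108920099-108920348, plus strand) as the best known target without one. The Sp5 matches begin 222 and 104 bases before the start and that of T 235 bases before it. A match is a run of letters and not a measured site.
Sp5: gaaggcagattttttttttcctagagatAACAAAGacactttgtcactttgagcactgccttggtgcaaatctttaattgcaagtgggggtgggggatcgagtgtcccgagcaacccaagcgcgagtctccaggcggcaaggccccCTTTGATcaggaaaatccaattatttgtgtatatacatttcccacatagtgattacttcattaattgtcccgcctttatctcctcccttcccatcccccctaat
T: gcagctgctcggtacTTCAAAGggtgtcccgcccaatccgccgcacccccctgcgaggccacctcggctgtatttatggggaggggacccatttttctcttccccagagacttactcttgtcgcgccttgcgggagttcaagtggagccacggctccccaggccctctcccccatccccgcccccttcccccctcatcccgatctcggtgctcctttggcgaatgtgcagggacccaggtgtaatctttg
Axin2: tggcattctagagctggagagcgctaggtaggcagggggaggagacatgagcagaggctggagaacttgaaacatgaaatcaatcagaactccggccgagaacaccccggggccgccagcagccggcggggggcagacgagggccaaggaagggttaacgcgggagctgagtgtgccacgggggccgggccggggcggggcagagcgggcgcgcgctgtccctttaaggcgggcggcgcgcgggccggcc

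Axin2 encodes a scaffold of the destruction complex and is the usual readout of the pathway. The deposited span of Axin2 is chr11:108920349-108950783 (mm10, plus strand). Axin2 was at 13.0, 13.4, 12.6 and 11.4 RPM in WT libraries 1 to 4 and at 16.2, 16.6, 17.9 and 18.2 in ΔTAM libraries 1 to 4. Every ΔTAM library was above every WT library. The means were 12.6 ± 0.836 and 17.2 ± 0.942 (SD, n = 4 each), and the log2 fold change was 0.45 (SE 0.053, limma adjusted p = 5.0e-07). An exact permutation test of the means, two-sided over 4 against 4 libraries, gave p = 0.0286, the smallest it can give. Of Axin2's exonic bases, 3.80% overlap the antisense gene Gm11670, which had at most 2 reads in any library.

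Nkd1 encodes an inhibitor that binds Dishevelled, the protein that carries the signal from Frizzled to the destruction complex. Its span is chr8:88521354-88594884 (plus strand). Nkd1 was at 0.664, 0.835, 0.678 and 0.775 RPM in WT libraries 1 to 4 and at 0.752, 0.662, 0.525 and 0.637 in ΔTAM libraries 1 to 4, on 28 to 43 reads per library. In 3 of the 4 ΔTAM libraries it was below every WT library, though ΔTAM library 2 (0.662) and WT library 1 (0.664) differed by less than 1 read is worth, and ΔTAM library 1 lay among the WT libraries. Its log2 fold change of −0.17 (SE 0.15, limma adjusted p = 0.381) did not pass, and the 95% interval of the difference, −0.50 to 0.15, leaves room for a change of either direction at this depth.

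Rnf43 and Znrf3 are paralogs that encode membrane ubiquitin ligases, which remove Frizzled from the cell surface. Rnf43 (chr11:87662722-87735539, plus strand) was at 0.744, 0.757, 0.842 and 0.814 RPM in WT libraries 1 to 4 and at 1.53, 1.62, 1.88 and 1.77 in ΔTAM libraries 1 to 4. No ΔTAM library came near the WT range. With 37 to 42 reads per WT library and 69 to 103 per ΔTAM library, its log2 fold change was 1.01 (SE 0.12, limma adjusted p = 7.4e-07), the largest of the 10. Znrf3 (chr11:5276324-5444847, minus strand) was at 4.41, 4.25, 4.29 and 4.32 RPM in WT and at 5.31, 5.36, 5.07 and 5.75 in ΔTAM. The groups did not overlap, and the log2 fold change was 0.31 (SE 0.068, limma adjusted p = 8.6e-04). Per kb of exon, Znrf3 exceeded Rnf43 by 4.56 ± 0.298 times in WT and by 2.64 ± 0.280 times in ΔTAM (SD, n = 4 each; two-sided exact permutation p = 0.0286, the smallest possible), so the pair did not change in proportion.

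Sp5 encodes a zinc-finger transcription factor that is among the most direct targets of β-catenin, and its promoter is the one shown above with 2 matches. Sp5 (chr2:70474923-70477729, plus strand) was at 4.61, 4.41, 4.74 and 4.01 RPM in WT libraries 1 to 4 and at 6.35, 7.94, 7.65 and 7.37 in ΔTAM libraries 1 to 4. All ΔTAM libraries were higher than all WT libraries, and library 1 was the lowest of the ΔTAM line. The mean rose from 4.44 ± 0.318 to 7.33 ± 0.694 (SD, n = 4 each), with a log2 fold change of 0.71 (SE 0.075, limma adjusted p = 9.6e-08).

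Tcf7 and Tcf7l1 encode members of the TCF/LEF family, and in ESCs the protein of Tcf7l1 acts mainly as a repressor while that of Tcf7 acts as a partner of β-catenin in activation. Tcf7 (chr11:52252371-52283014, minus strand) was at 12.7, 13.3, 13.8 and 13.1 RPM in WT libraries 1 to 4 and at 15.6, 16.2, 15.8 and 15.0 in ΔTAM libraries 1 to 4. The groups did not overlap, and the difference was the smallest of those that passed, with a log2 fold change of 0.24 (SE 0.046, limma adjusted p = 2.4e-04). Tcf7l1 (chr6:72626378-72789254, minus strand) was at 8.27, 8.93, 8.75 and 9.15 RPM in WT and at 13.6, 13.7, 12.8 and 13.9 in ΔTAM. The mean rose from 8.77 ± 0.375 to 13.5 ± 0.453 (SD, n = 4 each), and the log2 fold change was 0.62 (SE 0.051, limma adjusted p = 2.3e-09). Per kb of exon, Tcf7 exceeded Tcf7l1 by 2.26 ± 0.0978 times in WT and by 1.73 ± 0.0944 times in ΔTAM (two-sided exact permutation p = 0.0286, n = 4 each). Of the exonic bases of Tcf7l1, 4.56% overlap the antisense gene Gm15401, which had at most 5 reads in any library.

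Cdx1 and Cdx2 encode caudal-type homeodomain factors of the posterior embryo, and Cdx2 also marks the trophectoderm of the blastocyst. Cdx1 (chr18:61018862-61036199, minus strand) was at 20.7, 23.5, 21.9 and 21.1 RPM in WT libraries 1 to 4 and at 20.4, 21.5, 21.3 and 21.6 in ΔTAM libraries 1 to 4. The groups overlapped, and the log2 fold change was −0.040 (SE 0.045, limma adjusted p = 0.502) with a 95% interval of −0.13 to 0.053, on 921 to 1252 reads per library. Cdx2 (chr5:147300805-147307270, minus strand) was at 1.85, 1.77, 1.64 and 1.47 RPM in WT and at 1.50, 2.33, 2.59 and 2.41 in ΔTAM. In 3 ΔTAM libraries Cdx2 was above every WT library, and ΔTAM library 1 was below 3 of the 4 WT libraries.

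The log2 fold change of Cdx2 was 0.35 (SE 0.14, limma adjusted p = 0.0405), and the two-sided exact permutation test gave p = 0.114 (n = 4 each). Cdx2 lost its call when any 1 library other than WT library 1 or ΔTAM library 1 was left out, with an adjusted p of up to 0.152, and without ΔTAM library 1 its log2 fold change was 0.52 (limma adjusted p = 7.4e-04). Of 11 trophectoderm markers 8 were tested, of which Tfap2c was higher in ΔTAM and Krt8, Krt18, Esx1 and Eomes were lower. Gata3, Elf5 and Hand1 were too low to test. Tfap2a (0.24, limma adjusted p = 0.245) and Krt7 (0.41, 0.126) did not pass. Krt7 was called higher without WT library 3 (0.56, limma adjusted p = 0.0421). Tfap2a was called higher (0.48, limma adjusted p = 0.018) without WT library 4 and ΔTAM library 1, a fit chosen after seeing the data. The summed level of the 11 markers was 12.9 to 13.7 RPM in WT and 12.6 to 14.6 in ΔTAM, most of it Tfap2c, with means of 8.37 and 9.66. In bulk RNA, fewer cells of a type and less RNA per cell cannot be told apart.

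T encodes Brachyury, a T-box factor of the primitive streak and early mesoderm, and its promoter holds the match shown above. T (chr17:8434423-8442496, plus strand) was at 5.77, 5.84, 5.42 and 5.62 RPM in WT libraries 1 to 4 and at 4.14, 5.27, 5.25 and 5.41 in ΔTAM libraries 1 to 4. Every ΔTAM library was below every WT library, though ΔTAM library 4 (5.41) and WT library 3 (5.42) differed by less than the 0.0172 RPM that 1 read is worth. The log2 fold change was −0.18 (SE 0.078, limma adjusted p = 0.0685), which did not pass, while the two-sided exact permutation test gave p = 0.0286 (n = 4 each). Without ΔTAM library 1 the log2 fold change of T was −0.091, and without ΔTAM library 4 it was −0.22 and passed (limma adjusted p = 0.0478). Of 11 primitive streak and mesoderm markers, 6 had at most 10 reads in every library and 2 were tested, of which Eomes was lower in ΔTAM. The other, Gsc, had a log2 fold change of −0.38 (limma adjusted p = 0.237), and of −0.62 (0.0407) without WT library 4. Their summed level was 2.07 to 2.58 RPM in WT and 1.48 to 1.84 in ΔTAM, and the part of such cells in the level of T was not tested.

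**Figure D2:**
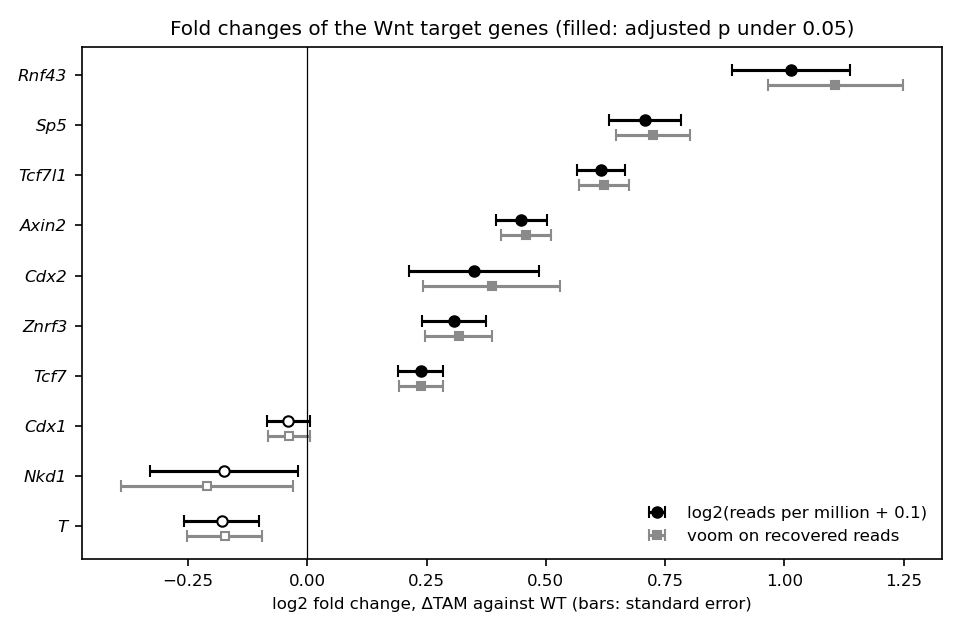
Log2 fold change of each of the 10 genes, ESC + F/H-BAZ2Ar ΔTAM over ESC + F/H-BAZ2Ar WT, with bars of ± 1 SE, from limma on log2(RPM + 0.1) (circles) and from limma voom on the recovered reads (squares); filled symbols have an adjusted p under 0.05 and the vertical line at 0 is no difference. On the first scale Rnf43 is highest at 1.01, and Cdx1, Nkd1 and T lie at −0.040, −0.17 and −0.18.

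Per kb of exon, the scale on which genes can be set against each other, the levels of the 10 spanned a wide range and their order differed between the lines. In WT the order was Cdx1 at 12.5 RPM per kb, Tcf7 at 5.04, T at 2.45, Axin2 at 2.29, Tcf7l1 at 2.24, Sp5 at 2.12, Cdx2 at 0.744, Znrf3 at 0.547, Nkd1 at 0.162 and Rnf43 at 0.120. From T to Sp5 the neighbours overlapped between libraries, and every other pair of neighbours was separate. In ΔTAM, Cdx1 and Tcf7 stayed first at 12.1 and 5.95, Sp5 (3.49), Tcf7l1 (3.44) and Axin2 (3.13) came before T (2.17), and Rnf43 (0.259) came before Nkd1 (0.141). The libraries of Sp5 and Tcf7l1, of Tcf7l1 and Axin2, and of Cdx2 (0.977) and Znrf3 (0.681) overlapped there. Cdx1 thus had the highest level of the 10 in both lines and a fold change near 0, and Rnf43 had the lowest level in WT and the largest fold change. Per kb of exon, Cdx1 exceeded Cdx2 by 16.8 ± 1.72 times in WT and 12.9 ± 3.11 times in ΔTAM, a difference that did not pass (two-sided exact permutation p = 0.114, n = 4 each).

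**Figure D3:**
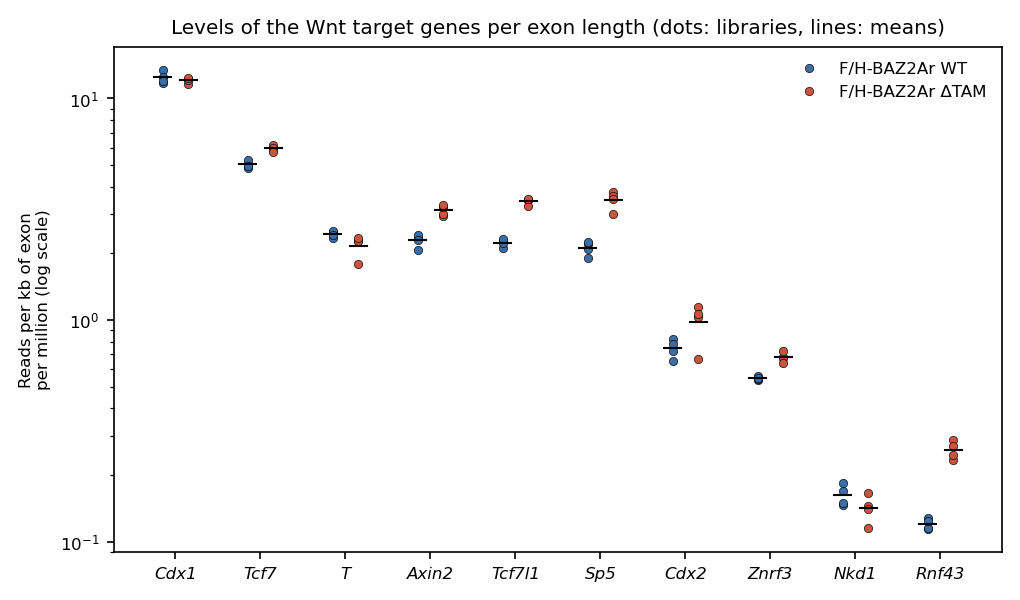
Level of the 10 genes in RPM per kb of exon, on a log axis, ordered by the mean of ESC + F/H-BAZ2Ar WT; points are the 4 libraries of each line and bars their means. Cdx1 is highest in both lines, and the WT libraries of T, Axin2, Tcf7l1 and Sp5 lie in a common range between 1.91 and 2.52.

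The other genes of the pathway were read from 6 lists by role, with 108 genes in all, each counted once. Of the 64 that were tested, 14 (21.9%) were higher in ΔTAM and 8 (12.5%) lower, with a median log2 fold change of 0.048. Over all genes 21.7% were higher and 22.0% lower, so the share of higher genes lies near that of all genes and the share of lower genes under it. The lists were likewise chosen with earlier results known.

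Among 21 genes of Wnt ligands and their secretion, 15 had at most 10 reads in every library, and Wnt1, Wnt2 and Wnt9b had 0, which allows a level of up to 0.0517 to 0.0685 RPM per library (3 reads; counting error only). Of the 4 tested, Porcn, the acyltransferase that lipidates Wnt proteins, rose from 3.39 ± 0.279 to 6.97 ± 0.365 RPM (log2 fold change 1.02, SE 0.073, limma adjusted p = 2.4e-10). Wls, which carries Wnt proteins to the cell surface, rose from 2.05 ± 0.194 to 2.74 ± 0.130 (0.40, SE 0.096, limma adjusted p = 0.00173). Wnt3a did not pass (0.42, SE 0.26, limma adjusted p = 0.201), on 3 to 21 reads per library. It was called higher (0.72, limma adjusted p = 0.0403) with WT library 4 and ΔTAM library 1 both left out, a fit chosen after seeing the data. Wnt5b, a ligand of the non-canonical branch, fell from 0.986 ± 0.205 to 0.690 ± 0.139 (−0.46, SE 0.16, limma adjusted p = 0.0258), and the fold change of Wnt5b did not pass without WT library 3 (adjusted p = 0.119), ΔTAM library 3 (0.0618) or ΔTAM library 4 (0.0854).

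Of 22 genes for Wnt receptors and the R-spondin axis, 15 were tested. In ΔTAM 4 were higher (Fzd2, Fzd3, Lrp5 and Lgr4) and 2 lower (Fzd7 and Fzd10), and Lgr5 had 0 reads. Fzd3, a Frizzled receptor, rose from 1.64 ± 0.193 to 2.93 ± 0.281 RPM (log2 fold change 0.81, SE 0.11, limma adjusted p = 2.0e-06). Fzd2 rose from 1.05 ± 0.0942 to 1.50 ± 0.284 (0.47, SE 0.14, limma adjusted p = 0.0082). Fzd10, the most abundant of the 3, fell from 22.6 ± 1.07 to 17.9 ± 0.653 (−0.33, SE 0.045, limma adjusted p = 2.7e-06). Frizzled genes thus moved in both directions. The call of Fzd7 (limma adjusted p = 0.0287) was lost in 6 of the 8 fits that left out 1 library, all but those without WT library 4 or ΔTAM library 3, with an adjusted p of up to 0.0774. Lrp5, Lgr4, Fzd7, Wnt3a, Tle1, Tle2, Ctbp1 and Ctbp2 are named to complete the counts and were chosen after their values were seen. So were single markers of cell types, such as Gsc, Gata4, Dab2, Hnf4a, Nes, Sox3, Tfap2a, Tfap2c and Krt7.

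In the destruction complex and its relay, 16 of 17 genes were tested, with 2 higher (Dvl3 and Ctnnb1) and 1 lower (Tnks2). Ctnnb1, which encodes β-catenin, was at 86.8 ± 3.19 RPM in WT and 101.1 ± 3.27 in ΔTAM (log2 fold change 0.22, SE 0.034, limma adjusted p = 2.0e-05). Dvl3, a Dishevelled gene, rose by 0.24 (SE 0.065, limma adjusted p = 0.00469), and Tnks2, a tankyrase that marks Axin for degradation, fell by 0.15 (SE 0.032, limma adjusted p = 6.3e-04), both on the log2 scale. Gsk3b, the kinase gene whose product CHIR99021 inhibits, had a log2 fold change of 0.057 (SE 0.049, adjusted p = 0.367). Apc (0.075, SE 0.079) and Axin1 (0.014, SE 0.050) likewise did not pass. Axin1, unlike its paralog Axin2, is not a known feedback target. The sign of the fold changes of Apc and Axin1 turned when single libraries were left out.

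All 14 genes of TCF/LEF factors and their partners in the nucleus were tested, with Lef1 and Tle4 higher and Tle2, Tle3 and Ctbp1 lower. Ctbp2, the paralog of Ctbp1, missed the threshold (0.10, limma adjusted p = 0.0514) and was called higher under 8 alternatives, with an adjusted p down to 0.0332. Lef1, a TCF/LEF family member, is like Tcf7 itself a Wnt target. It was at 1.50 ± 0.114 RPM in WT and 2.26 ± 0.119 in ΔTAM (log2 fold change 0.56, SE 0.10, limma adjusted p = 1.5e-04). Tcf7l2, the remaining family member, had a log2 fold change of 0.14 (SE 0.10, adjusted p = 0.268). Of the Groucho co-repressors, Tle1 did not pass (0.083, SE 0.081, adjusted p = 0.430) and Tle2 fell on 9 to 25 reads per library (−0.54, SE 0.21, limma adjusted p = 0.0398), a call lost without any 1 of WT libraries 1 and 2 and ΔTAM libraries 1, 3 and 4 (adjusted p of up to 0.141). Larger read numbers stood behind the other pair, with Tle3 falling from 34.5 ± 0.701 to 24.1 ± 0.435 (−0.51, SE 0.037, limma adjusted p = 2.5e-10) and Tle4 rising from 10.2 ± 0.679 to 13.4 ± 0.470 (0.39, SE 0.054, limma adjusted p = 3.2e-06).

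Of 20 secreted or membrane inhibitors, 9 were tested, with 2 higher and 0 lower. Notum, which removes the lipid from Wnt proteins and is a feedback target like Axin2, was at 6.48, 6.66, 7.92 and 6.55 RPM in WT libraries 1 to 4 and at 13.1, 13.3, 12.5 and 14.0 in ΔTAM libraries 1 to 4. All 4 ΔTAM libraries were above the WT range, with a log2 fold change of 0.93 (SE 0.063, limma adjusted p = 9.3e-11). Dkk3, of the Dickkopf family, rose from 0.903 ± 0.0903 to 1.33 ± 0.180 (SE 0.13, limma adjusted p = 0.00397).

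Of 20 other genes known to respond to β-catenin, 10 were tested, with 4 higher (Lef1, Notum, Gbx2 and Id2) and 1 lower (Eomes). Gbx2, a homeobox gene tied to ESC self-renewal, rose from 2.57 ± 0.267 to 5.13 ± 0.325 RPM (log2 fold change 0.97, SE 0.086, limma adjusted p = 6.0e-09). Id2, an inhibitor of basic helix-loop-helix factors, rose from 0.501 ± 0.132 to 1.31 ± 0.165 (1.26, SE 0.16, limma adjusted p = 1.9e-06). Eomes, a T-box gene of the streak and trophectoderm, fell from 1.26 ± 0.112 to 0.931 ± 0.174 (−0.41, SE 0.14, limma adjusted p = 0.020), the same sign as T, and the fold change of Eomes did not pass without WT library 2 (adjusted p = 0.0600) or ΔTAM library 4 (0.0830). The 4 higher genes are 40.0% of those tested, beside 21.7% of all genes, and the median of the list was 0.035.

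**Figure D4:**
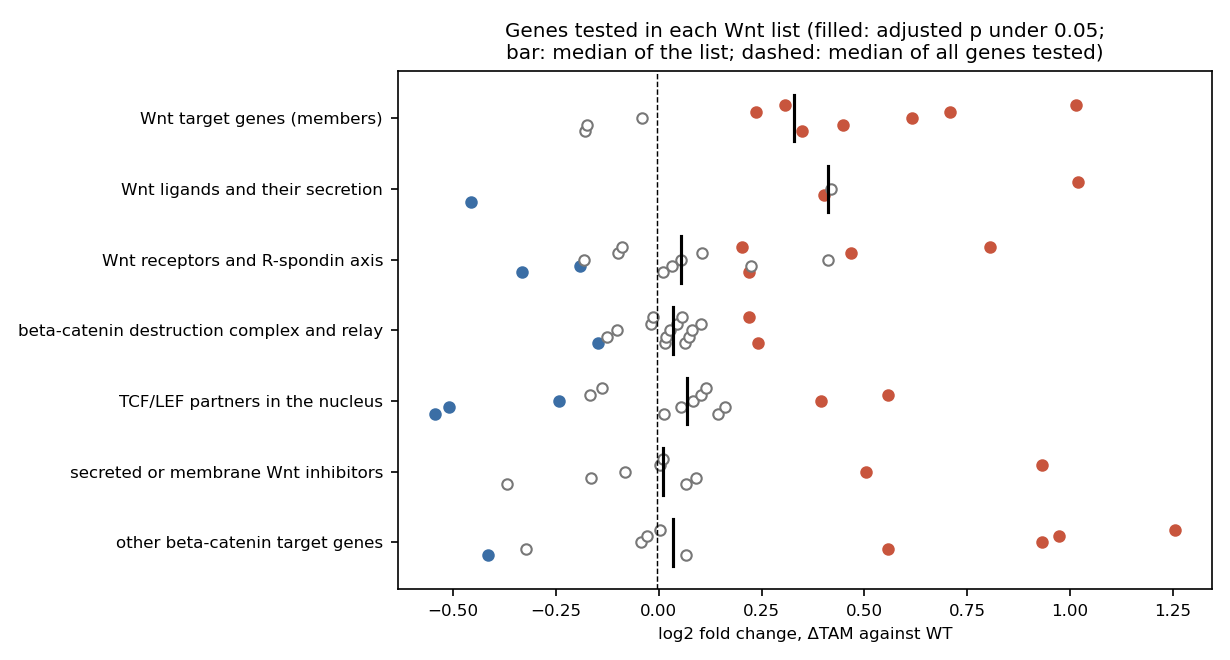
Log2 fold change, ESC + F/H-BAZ2Ar ΔTAM over ESC + F/H-BAZ2Ar WT, of every tested gene in the 10 members and in 6 lists of Wnt pathway genes; each point is a gene, filled where its adjusted p is under 0.05, the bar is the list's median and the dashed line that of all genes tested. The members' median of 0.33 lies above those of the other lists except the ligand list, where 4 genes were tested with a median of 0.41.

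The 8 primitive endoderm markers summed to 2.29 to 2.67 RPM in WT and 1.55 to 1.81 in ΔTAM, and Hnf4a, at 1.43 ± 0.138 and 0.211 ± 0.0665, made the sum lower. Gata4, the other gene tested, was at 0.610 ± 0.0520 and 0.812 ± 0.0876, with every ΔTAM library above every WT library (log2 fold change 0.36, SE 0.15, limma adjusted p = 0.0551), which did not pass but passed with a pseudocount of 0.5 (0.0454), quantile normalization (0.0295) or no variance trend (0.0106). Dab2 was at 0.0154 and 0.164, on at most 10 reads per library. The neural ectoderm list summed to 4.87 to 5.85 in WT and 3.01 to 3.30 in ΔTAM, with Sox1 and Nes lower and Sox3 higher, and Nes (4.32 and 2.18) held most of the sum. The call of Sox3 (limma adjusted p = 0.0313) was lost without WT library 1 or 3 or ΔTAM library 1 or 3, with an adjusted p of up to 0.122. The summed level of the 10 Wnt targets was 71.7 to 77.0 RPM in WT and 85.4 to 91.9 in ΔTAM. The part of cell type composition in these differences was not tested. With library 4 of WT and library 1 of ΔTAM both left out, an alternative chosen after seeing the data, 7 of the 10 Wnt targets were higher and 0 lower, beside 20.7% of all genes higher and 21.6% lower in that fit.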

How the data were processed

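PolyA RNA was sequenced from E14 ESCs in 8 libraries, 4 of ESC + F/H-BAZ2Ar WT and 4 of ESC + F/H-BAZ2Ar ΔTAM, grouped by their labels. The authors removed ribosomal reads, trimmed adapters (Trimmomatic 0.36 in the submitters' processing notes), mapped with STAR to mm10, counted exon coverage per gene and deposited RPKM, 1 column per library. The annotation release, whether strand was used and how reads with several positions were handled are not given in the sources used here, so reads shared by paralogs or overlapping genes are uncertain.

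The RPKM multiplied by the gene span (start to end, introns included) came in whole multiples of 1 step per library for 99.5% to 99.6% of values above 0, within a tolerance of 0.05, and the step was taken as 1 read. RPKM times span in kb gave RPM (reads per 1000000 of the library total), with totals of 43.8 to 58.1 M reads, of which 14.8% to 15.0% lay on genes. Of 51288 entries, 386 were set aside, nearly all repeats of 231 symbols, and 50902 genes remained. Levels between genes used the summed exon length of GENCODE vM21, whose coordinates match all 10 members. Reads carry no molecular identifiers, so precision from depth covers counting error only.

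Fold changes came from limma 3.58.1 in R 4.3.3 (lmFit, eBayes with a mean-variance trend, no covariate) on log2(RPM + 0.1), for genes with a mean of at least 0.2, with Benjamini-Hochberg adjustment over 12631 genes and a call at an adjusted p under 0.05. The study's thresholds were a log2 fold change of at least 0.58 and p under 0.05. Single values were also compared with two-sided exact permutation tests. The named genes are the 10 members, Baz2a and, per Wnt list, up to 3 genes with the largest called change and a mean of at least 1 RPM. To these come every called ligand or other target, and Ctnnb1, Gsk3b, Apc, Axin1, Lef1 and Tcf7l2 whatever their values. Further genes were named after their values were seen, to complete the counts. The members and lists were chosen with earlier results of these data known. Alternatives were other pseudocounts, filters, scalings and variance models, the deposited RPKM, voom on recovered reads, a replicate block and each library left out. Other assays of the study were not analysed here.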

Additional observations from a re-analysis of the deposited data

Results flagged for a closer look

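In 6 of the 64 groups of 4 libraries examined for the named genes, 1 library lay far from the other 3 by Dixon's test at 95%, which flags about 1 group in 20 by chance. T was at 4.14 RPM in ΔTAM library 1 and at 5.25 to 5.41 in the others. Tle3 was at 23.5 in ΔTAM library 4 and at 24.3 to 24.4 in the others. Wnt5b was at 1.29 in WT library 3 and at 0.872 to 0.905 in the others, and Notum at 7.92 in WT library 3 and at 6.48 to 6.66 in the others. Porcn was at 3.81 in WT library 2 and at 3.22 to 3.29 in the others, and Fzd3 at 1.92 in WT library 2 and at 1.51 to 1.56 in the others.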

How the results depend on the processing

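Axin2, Sp5, Rnf43, Znrf3, Tcf7 and Tcf7l1 stayed higher past the threshold under every alternative that gave them a value. On the deposited RPKM, Rnf43, Znrf3, Tcf7l1 and Nkd1 fell under the filter, and 3 of the 6 members tested were higher, beside 1790 genes (19.9%) higher and 1435 (15.9%) lower of 9000 tested and 8 higher in the Wnt lists. The log2 fold change of Cdx2 was no longer past the threshold with no filter (0.35, limma adjusted p = 0.0838), on the deposited RPKM (0.28, 0.130) and without the variance trend (0.35, 0.116), and it ranged from 0.27 to 0.52 with 1 library left out. T passed with a replicate block (−0.18, adjusted p = 0.0465), which gave 1 lower member beside 23.6% of all genes lower and 22.8% higher, and it ranged from −0.22 to −0.091 with 1 library left out. Without ΔTAM library 4 it passed too (adjusted p = 0.0478), again as 1 lower member. With 1 library left out, 6 to 7 members were higher and 0 to 1 lower, beside 2393 to 2687 genes higher and 2412 to 2779 lower in all, and 14 to 15 higher and 4 to 9 lower in the Wnt lists, the 4 without ΔTAM library 4. Deviations of libraries with the same replicate number correlated at 0.040 to 0.149 over 9958 genes, and those with different numbers at −0.261 to 0.204. Pairing by replicate number was therefore not settled, and the block changed no other member's call. The fold change of Apc ranged from −0.012 (without ΔTAM library 1) to 0.16 with 1 library left out, and the fold change of Axin1 reached 0.055, being −0.00812 without WT library 4, −0.00947 without ΔTAM library 3 and −0.0133 without WT library 4 and ΔTAM library 1. The fold changes of Sox3 (0.105) and Tle2 (0.127) were not called with no filter, and that of Sox3 not without the variance trend (0.106), on the deposited RPKM (0.126) or without WT library 4 and ΔTAM library 1 (0.0651), all as adjusted p. With those last libraries left out, chosen after seeing the data, Eomes no longer passed (−0.38, limma adjusted p = 0.0633). The fold change of Eomes did not pass with no filter either (adjusted p = 0.0650), and the fold change of Wnt5b did not pass with no filter (0.0924) or quantile normalization (0.0618). The cause of these changes was not tested. Nkd1 and Rnf43 rested on the fewest reads of the 10 genes, 28 to 103 per library.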
